A study of Homo sapiens with 12 samples.

Results

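mRNA abundance in U2OS cells that received Cas9 and a guide against EXOSC5 (EXOSC5-KO cells) was compared with that in cells that received a nontargeting guide (NONT cells), both without drug. The comparison used 4 of the 12 libraries of the series, 2 replicates per genotype, and 13811 of the 22379 genes in the deposited table, those with a mean value of at least 10 over the 6 untreated libraries. U2OS is a human osteosarcoma line with wild-type p53. The other libraries came from NUP93-KO cells and from the 3 genotypes after 8 h of 1 μM triptolide, a drug that binds the XPB subunit of TFIIH and stops transcription by RNA polymerase II at initiation. The sample labels give the untreated cells the vehicle DMSO and call the NONT genotype wild type. EXOSC5-KO and NONT cells alike were transiently transfected with a plasmid carrying Cas9, the guide and puromycin resistance, selected with puromycin and used as a pool, so they were not clones and could hold unedited cells. Nothing in the labels says whether the replicates were separate transfections, and the p-values measure only the spread between these libraries.

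The RNA exosome is a barrel of noncatalytic subunits that threads RNA to a nuclease and degrades or trims it from its 3′ end. It acts in the nucleus on processing by-products, promoter upstream transcripts and prematurely ended transcripts, and in the cytoplasm, with the SKI complex, on mRNA. EXOSC5 is one of the subunits of the barrel and has no nuclease activity of its own. The study chose EXOSC5 as a gene whose loss makes mRNA accumulate, and the comparison without drug asks which mRNAs differed, and by how much, before any transcription was blocked.

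The guide sequences are shown because the position of the EXOSC5 cut decides what the mRNA values can say about the knockout. Capitals mark bases of exon 1, and lower case in the EXOSC5 guide marks bases of intron 1.
EXOSC5 guide: gaagttcttacCTTGCAGGA
NONT guide: cggcggtcacgaactccagc
The EXOSC5 guide had 1 exact match in GRCh38, at chr19:41397170-41397189 on the plus strand, next to the PAM AGG. EXOSC5 lies on the minus strand (41386371 to 41397362, 6 exons), so the guide spans the junction of exon 1 and intron 1, with 9 bases in coding exon sequence and 11 in the intron, where the splice donor lies. Cas9 would cut 6 bases into the exon. The NONT guide had 0 exact matches.

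EXOSC5 mRNA (ENSG00000077348) was lower in EXOSC5-KO cells. Its spike-in-normalized value was 215.9 and 147.7 in the EXOSC5-KO libraries, against 299.4 and 481.3 in the NONT libraries and 376.1 and 375.8 in NUP93-KO cells. The EXOSC5-KO and NONT libraries did not overlap, and the EXOSC5-KO pool kept 0.464 times the NONT level at the same total. The difference was −1.08 on the log2 scale on the deposited values (limma, adjusted p = 0.151) and −1.11 ± 0.19 (SE) with every library scaled to the same total (adjusted p = 0.00808). The call at the same total was lost without EXOSC5-KO replicate 2 (adjusted p = 0.0683) or without NONT replicate 2 (adjusted p = 0.0724). A frameshift need not lower the mRNA, and the protein was not measured here. In bulk RNA of a pool, fewer cells with the mRNA and less mRNA per cell cannot be told apart.

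Values on the deposited scale were normalized by the authors to ERCC spike-in RNA that was added per cell, so they are meant to follow mRNA per cell. The sum over genes was 14.4 M and 13.41 M (M, mega) in the EXOSC5-KO libraries and 11.32 M and 16.45 M in the NONT libraries. The NONT libraries lay on both sides of the EXOSC5-KO libraries. The means were 13.9 ± 0.703 and 13.9 ± 3.62 M (SD, n = 2), a ratio of 1.00 (exact two-sided permutation p = 1, smallest possible 0.333). No difference in total mRNA was detectable against a NONT pair that differed this much. The median log2 difference between replicate 1 and replicate 2 was −0.51 in NONT and 0.11 in EXOSC5-KO on the deposited scale, and 0.02 and 0.00 at the same total. The approximate depth of the untreated libraries was 9.22 M to 11.9 M reads. The correlation of log2 values between replicates was r = 0.964 in EXOSC5-KO and 0.968 in NONT, over genes and so not over independent replicates.

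Both scales are therefore reported, and the larger set of genes comes from the same total, which asks whether a gene took a different share of the mRNA. An adjusted p under 0.05 was the threshold. On the deposited scale 67 genes were higher (0.485% of those tested) and 5 were lower (0.0362%) in EXOSC5-KO cells. At the same total 384 genes were higher (2.78%) and 289 were lower (2.09%). Of the 67 genes, 66 were also higher at the same total, as were all 5 lower genes lower. With libraries scaled by the median of ratios the split was 284 higher and 503 lower, and with libraries scaled to the mitochondrial mRNAs it was 74 higher and 719 lower, so the balance of the directions was set by the scale. The median of all genes was 0.04 at the same total, 0.07 on the deposited scale, −0.03 by ratios and −0.30 on the mitochondrial scale. Without NONT replicate 1 the deposited scale gave 47 higher and 53 lower genes, and without NONT replicate 2 it gave 197 and 1.

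**Figure D1:**
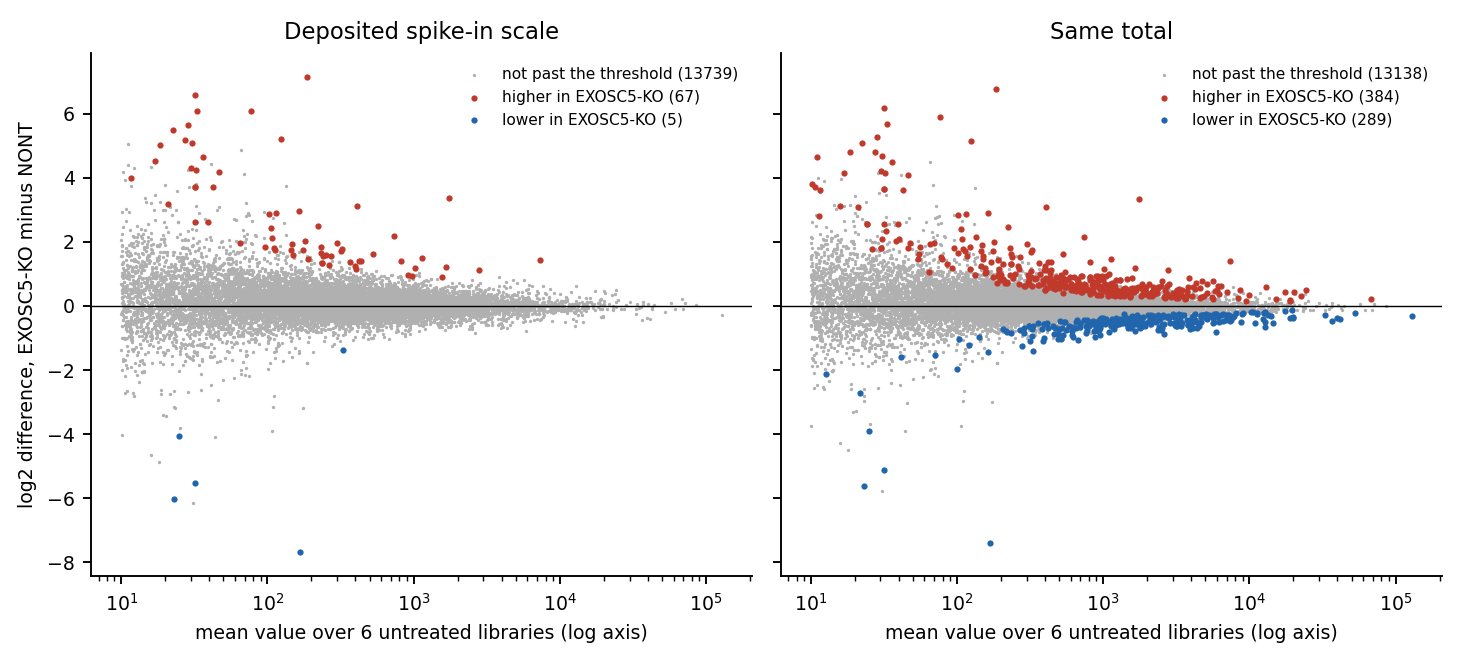
Log2 difference between EXOSC5-KO and NONT cells without drug (y axis) against the mean value over the 6 untreated libraries (x axis, log scale) for 13811 genes, on the deposited spike-in scale (left) and at the same total (right). Red points were higher and blue points lower at an adjusted p under 0.05, 67 and 5 on the left and 384 and 289 on the right, and most of the added genes on the right have small differences at high levels.

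The changes were mostly small. The median log2 difference was 0.67 among the higher genes and −0.51 among the lower genes. A change of at least 2-fold was seen in 109 higher and 19 lower genes. In 353 of the higher and 223 of the lower genes the EXOSC5-KO and NONT libraries did not overlap on either scale. Of 12995 genes with a symbol, those with a mean of at least 4000 over both genotypes numbered 577, of which 75 were called lower and 36 higher. Between 10 and 100 there were 2915 genes, of which 6 were called lower and 37 higher. The median SE was 0.06 in the first class and 0.56 in the second, so small changes could be called only in abundant mRNAs.

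Large increases were seen in PCSK5, PCF11 and RBBP6. PCSK5 encodes a proprotein convertase that cleaves secreted precursors (ENSG00000099139, chromosome 9, 75890644 to 76362975, 38 exons). Its value was 4228 and 4314 in the EXOSC5-KO libraries, 330.4 and 520.2 in NONT and 464.6 and 674.2 in NUP93-KO. Both EXOSC5-KO libraries were far above the other 4. The log2 difference from NONT was 3.33 ± 0.13 (SE, 10.1-fold, limma adjusted p = 1.18e-06) at the same total and 3.36 on the deposited scale.

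PCF11 encodes a subunit of the complex that cleaves nascent mRNA at the polyadenylation site and releases the polymerase (ENSG00000165494, chromosome 11, 83156988 to 83187451, 16 exons). Its value was 1082 and 951.0 in EXOSC5-KO, 84.9 and 159.5 in NONT and 77.7 and 103.6 in NUP93-KO. The log2 difference was 3.08 ± 0.25 (8.47-fold, limma adjusted p = 0.000195). RBBP6, another protein of the cleavage machinery, was at 1563 and 1476 in EXOSC5-KO, 340.4 and 324.3 in NONT and 293.1 and 423.5 in NUP93-KO (log2 difference 2.16 ± 0.28, adjusted p = 0.00226). It was named after its values were seen. A list of 20 cleavage and polyadenylation factors was drawn up for the same reason and is only a description. The other lists were also chosen with earlier results of these data known, so their counts are descriptions as well. Beside PCF11 and RBBP6 only CSTF3, at 1391 and 1291 against 589.5 and 817.0, was called at the same total (log2 difference 0.92). The median over the 20 factors was 0.01, and of all tested genes 2.78% were higher and 2.09% lower at the same total. No member was lower there or on the deposited scale, whereas 2, CPSF1 and NUDT21, were lower by ratios and on the mitochondrial scale. The poly(A) polymerase PAPOLA (−0.12) and the cleavage endonuclease CPSF3 (−0.06) did not pass the test.

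Several of the other large increases were of genes with low values in NONT cells. The 12 largest, by the rule given in the processing section, were FAM83H, H3Y1, TAF11L12, SULT1B1, ERV3-1, PCSK5, PCF11, ACD, POTEI, POTEF, ANKRD30BL and MAPK10, and all 12 passed on both scales. SULT1B1, a cytosolic sulfotransferase, was at 158.7 and 94.1 in EXOSC5-KO and at 6.05 and 5.59 in NONT. MAPK10, which encodes the neuronal JNK3, was at 197.3 and 247.0 against 41.5 and 39.2, a 5.23-fold difference. POTEF, one of the primate-specific ankyrin repeat genes, was at 272.6 and 225.4 against 25.8 and 42.6. POTEI, a near copy of POTEF, was at 263.7 and 261.4 against 33.9 and 34.6. Reads may have been divided between such copies, so the separate values are uncertain.

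FAM83H and ACD were less certain. FAM83H was at 547.4 and 346.4 in EXOSC5-KO and at 8.55 and 0 in NONT, and NUP93-KO cells lay between them with 25.4 and 186.3. With triptolide its order turned round, with 15.8 and 0 in EXOSC5-KO and 500.9 and 142.4 in NONT at the same total (log2 difference −6.03, adjusted p = 0.0354). The difference between the 2 effects had an SE of 2.28 and an adjusted p of 0.109. ACD, a shelterin protein of telomeres, was at 316.6 and 172.0 in EXOSC5-KO and 54.6 and 15.4 in NONT. NUP93-KO cells, at 239.3 and 182.8, did not differ from EXOSC5-KO cells in ACD beyond their spread (log2 difference 0.02).

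**Figure D2:**
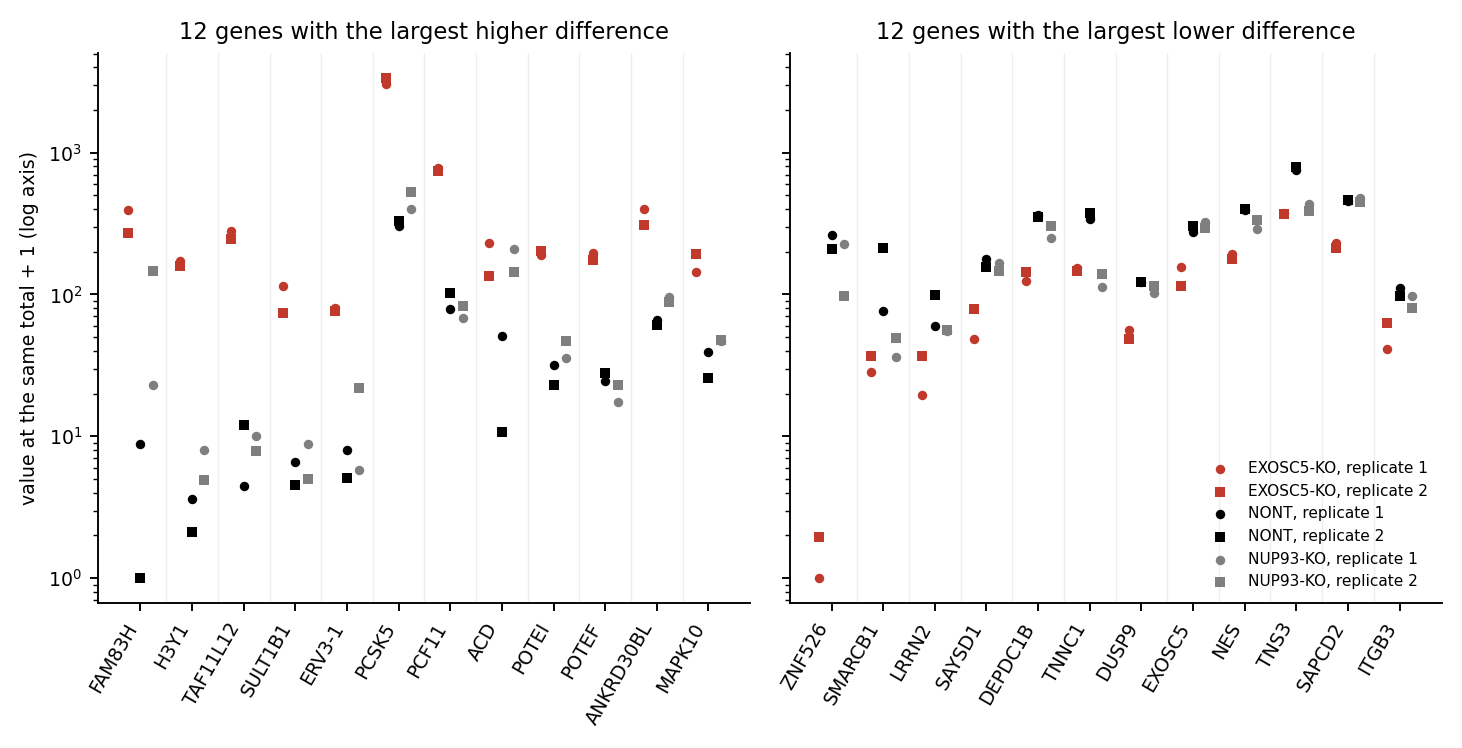
Values at the same total plus 1 (y axis, log scale) of the 12 genes with the largest increases (left) and the 12 with the largest decreases (right), one point per library without drug, circles for replicate 1 and squares for replicate 2. The EXOSC5-KO libraries (red) are separate from the NONT libraries (black) for all 24 genes, whereas the NUP93-KO libraries (gray) fall at or near the EXOSC5-KO values for ACD, SMARCB1, TNNC1 and TNS3.

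A group of genes known from the cleavage-stage embryo stood among these increases. H3Y1 encodes a primate-specific histone H3 variant, the TAF11L genes are intronless copies related to a TFIID subunit, ZSCAN4 encodes a zinc finger protein of early embryonic cells, and all belong to the genes that the transcription factor DUX4 activates. H3Y1 (ENSG00000269466) was at 239.1 and 203.4 in EXOSC5-KO, 2.85 and 1.76 in NONT and 8.10 and 4.99 in NUP93-KO, a log2 difference from NONT of 5.91 ± 0.55 (adjusted p = 0.000366). TAF11L12 was at 389.9 and 314.1 in EXOSC5-KO, 3.79 and 17.5 in NONT and 10.4 and 8.71 in NUP93-KO. ZSCAN4 was at 71.2 and 96.9 in EXOSC5-KO, 1.90 and 5.27 in NONT and 1.16 and 5.00 in NUP93-KO. These are low levels beside PCSK5, and the increase was seen in both EXOSC5-KO libraries and in none of the other 4.

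Of the 48 members of the list of early embryo and DUX4 targets that were in the table, 10 passed the filter on low values, and 16 were listed at 0 in all untreated libraries. Of all tested genes 2.78% were higher and 2.09% lower at the same total, and 0.485% were higher on the deposited scale. Of the 10 members, 7 were higher at the same total and 0 lower, and 5 were higher on the deposited scale. Beside H3Y1, TAF11L12 and ZSCAN4 they were TAF11L11, TAF11L13, TAF11L14 and TRIM48. Reads may have been divided between the related TAF11L copies, so their separate values and calls are uncertain. The median over the 10 was 4.0, against 0.04 over all genes. Most of these genes passed the filter through the EXOSC5-KO libraries alone, so the count and the median describe them and support nothing further. KLF17, at 6.73 and 2.68 against 15.1 and 28.1, and RFPL4A, at 2045 and 1910 against 1275 and 1984, did not pass the test. With a library left out 3 members were called, or 4 without NONT replicate 2. DUX4 itself was listed at 0 in both EXOSC5-KO libraries and at 0 and 2.74 in NONT. TRIM49B (log2 difference 5.10), TRIM49C (4.80) and SSU72L4 (4.66), which were named after their values were seen, had means of 61.7, 77.5 and 32.7 in EXOSC5-KO and of 0.475, 1.90 and 0 in NONT.

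H3Y1 and the called TAF11L genes lie within a short stretch of chromosome 5. The 100 bases before the RefSeq gene start of the 3 with a motif match there are shown, because these genes were higher together and DUX4 binds a known sequence. Capitals mark matches to TAANNNAATCA on either strand.
H3Y1, chr5:17655850-17655949, minus strand: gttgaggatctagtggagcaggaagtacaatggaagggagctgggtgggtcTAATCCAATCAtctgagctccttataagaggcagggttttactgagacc
TAF11L11, chr5:17604083-17604182, plus strand: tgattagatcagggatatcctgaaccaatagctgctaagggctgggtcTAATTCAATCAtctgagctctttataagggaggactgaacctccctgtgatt
TAF11L12, chr5:17610292-17610391, plus strand: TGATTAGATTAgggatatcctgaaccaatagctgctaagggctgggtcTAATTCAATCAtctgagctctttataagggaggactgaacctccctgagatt
The build is GRCh38.p14. In all 3, 11 bases separate the match from TATAA. TRIM48 had a match elsewhere in its 300-base window (250 bases before to 50 after the start), whereas the windows of ZSCAN4, TAF11L13 and TAF11L14 had none. Whether transcription begins at the RefSeq starts used was not tested. The letters were present in 249 of 27305 promoters in the RefSeq table (0.912%), in 51 of 10497 tested genes (0.486%), in 9 of 293 higher genes (3.07%) and in 1 of 229 lower genes (0.437%). The 9 were H2BC21, H2BC5, H3Y1, IFI16, SSU72L4, TAF11L11, TAF11L12, TRIM48 and TRIM49B. A match is a description of the letters and not evidence that a factor was bound. The motif was chosen after DUX4 targets were seen among the higher genes, and some of these are related copies. Most tested members of the early embryo list passed the filter through the EXOSC5-KO libraries alone, so the shares are no test of enrichment.

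Some targets of p53 were higher at the same total. The tumor suppressor p53 is a transcription factor that is stabilized by DNA damage and by other stresses and activates genes of cell cycle arrest, repair and apoptosis. Of 34 tested p53 targets, 10 were higher at the same total and 0 lower, against 2.78% and 2.09% of all tested genes. A positive difference was seen in 31 targets. The median was 0.43 against 0.04 over all genes, and 0 passed in limma on the deposited scale, where the median was 0.46 and 14 were higher at an unadjusted p under 0.05. CDKN1A, the p21 inhibitor of cyclin-dependent kinases, was at 6997 and 6414 in EXOSC5-KO, 3449 and 4929 in NONT and 4317 and 4577 in NUP93-KO. Its log2 difference from NONT was 0.67 ± 0.05 (adjusted p = 0.000166) and from NUP93-KO 0.45 (adjusted p = 0.00213). The EXOSC5-KO libraries were the highest of the 6.

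MDM2, the ubiquitin ligase that restrains p53, was at 1859 and 2152 in EXOSC5-KO and at 904.4 and 1351 in NONT (log2 difference 0.83). GDF15, a secreted stress cytokine, was at 252.5 and 189.8 against 69.7 and 98.1 (1.36), and at 197.8 and 214.1 in NUP93-KO, a difference of −0.05 that did not pass (adjusted p = 0.964). XPC, which recognizes DNA lesions in nucleotide excision repair, was at 1222 and 1113 against 517.8 and 735.1 (0.89). The proapoptotic BAX was at 3430 and 3225 against 1815 and 2507 (0.61). The other 5 called were TP53I3, TNFRSF10B, RRM2B, GADD45A and EDA2R. Scaled to the mitochondrial mRNAs the median of the list was 0.08 against −0.30 over all genes, and 0 members passed in limma, with 4 higher at an unadjusted p under 0.05. With a library left out, 1 member was called without NONT replicate 2 and 2 without each of the other 3. The NONT guide has no match in the genome, so loss of EXOSC5 and the cutting of DNA by Cas9 cannot be told apart against NONT cells. Against NUP93-KO cells, which received a targeting guide, 3 members were higher and 0 lower, with a median of 0.24. Among all tested genes 1.51% were higher and 1.54% lower in that comparison. The extent of cutting in the EXOSC5-KO and NUP93-KO pools was not tested.

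Many genes of mitosis were lower. Of 50 members of the list of mitosis and kinetochore genes, 22 were lower at the same total and 0 higher. Of all tested genes 2.09% were lower and 2.78% higher. A negative difference was seen in 49 members, and the median was −0.51 against 0.04 over all genes. On the deposited scale 1 passed, DEPDC1B, and the median was −0.48. By ratios 28 and on the mitochondrial scale 33 passed, all lower, and on both scales more of all genes were lower than at the same total. DEPDC1B, which promotes the detachment of cells before mitosis, was at 172.4 and 183.9 in EXOSC5-KO, 392.4 and 555.3 in NONT and 288.1 and 383.8 in NUP93-KO (log2 difference from NONT −1.41 ± 0.14, adjusted p = 0.000515). BIRC5, or survivin, a subunit of the chromosomal passenger complex and an apoptosis inhibitor, was at 3190 and 3047 against 4377 and 5580 (−0.69). The mitotic kinase PLK1 was at 1913 and 1794 against 2364 and 3500 (−0.66). In each of these the EXOSC5-KO libraries lay below both NONT libraries. The kinesin CENPE, at 0.03, was the single member with a positive difference. With a library left out, 7 members were called lower without EXOSC5-KO replicate 1, 10 without EXOSC5-KO replicate 2, 11 without NONT replicate 1 and 6 without NONT replicate 2.

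Genes of DNA replication were lower in smaller number. Of 50, 13 were lower and 0 higher at the same total, against 2.09% and 2.78% of all tested genes. A negative difference was seen in 46 members, and the median was −0.32. On the deposited scale 0 passed in limma and 10 were lower at an unadjusted p under 0.05. RRM2, the regulatory subunit of ribonucleotide reductase, was at 4267 and 4163 in EXOSC5-KO, 5868 and 9079 in NONT and 5710 and 6214 in NUP93-KO (log2 difference from NONT −0.82 ± 0.06, adjusted p = 0.000177). MCM2, a subunit of the replicative helicase, was at 2002 and 1889 against 2296 and 3674 (−0.60). E2F1, a transcription factor of S phase entry, was at 566.2 and 565.0 against 731.4 and 1026 (−0.64). With a library left out, 5 members were called without EXOSC5-KO replicate 1 or NONT replicate 2, 6 without NONT replicate 1 and 7 without EXOSC5-KO replicate 2. H2AX, PIMREG, ESPL1 and CDKN2C, which lay outside the lists and were named after their values were seen, were lower as well, by −0.88, −0.98, −0.96 and −0.89.

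Replication-dependent histone mRNAs end in a stem-loop in place of a poly(A) tail. Those called at the same total were higher, although 1 member was lower by ratios. Of the 67 such genes, 24 were listed at 0 in all untreated libraries and 20 were tested. Of these 20, 3 were higher and 0 lower at the same total, against 2.78% and 2.09% of all tested genes. Their median was 0.81. Over the 11 members with a mean of at least 50 the median was 0.37. A single member was higher on the deposited scale, and on the mitochondrial scale 0 were called by limma, with 8 at an unadjusted p under 0.05. With a library left out, 1 was called without EXOSC5-KO replicate 1 or NONT replicate 2 and 2 without each of the others. H1-2 was at 1319 and 1281 in EXOSC5-KO, 562.7 and 778.3 in NONT and 759.2 and 812.8 in NUP93-KO (log2 difference from NONT 0.95 ± 0.08, adjusted p = 0.000195). H2BC5 was at 466.2 and 381.0 against 189.7 and 237.0 (0.96), and H2BC21 at 681.7 and 633.3 against 323.0 and 499.0 (0.68). H2BC12, the member with the highest values in the list, was at 1651 and 1542 against 1571 and 2088 (−0.21, not called). The libraries were poly(A)-selected, so the values follow only the polyadenylated part of these mRNAs.

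**Figure D3:**
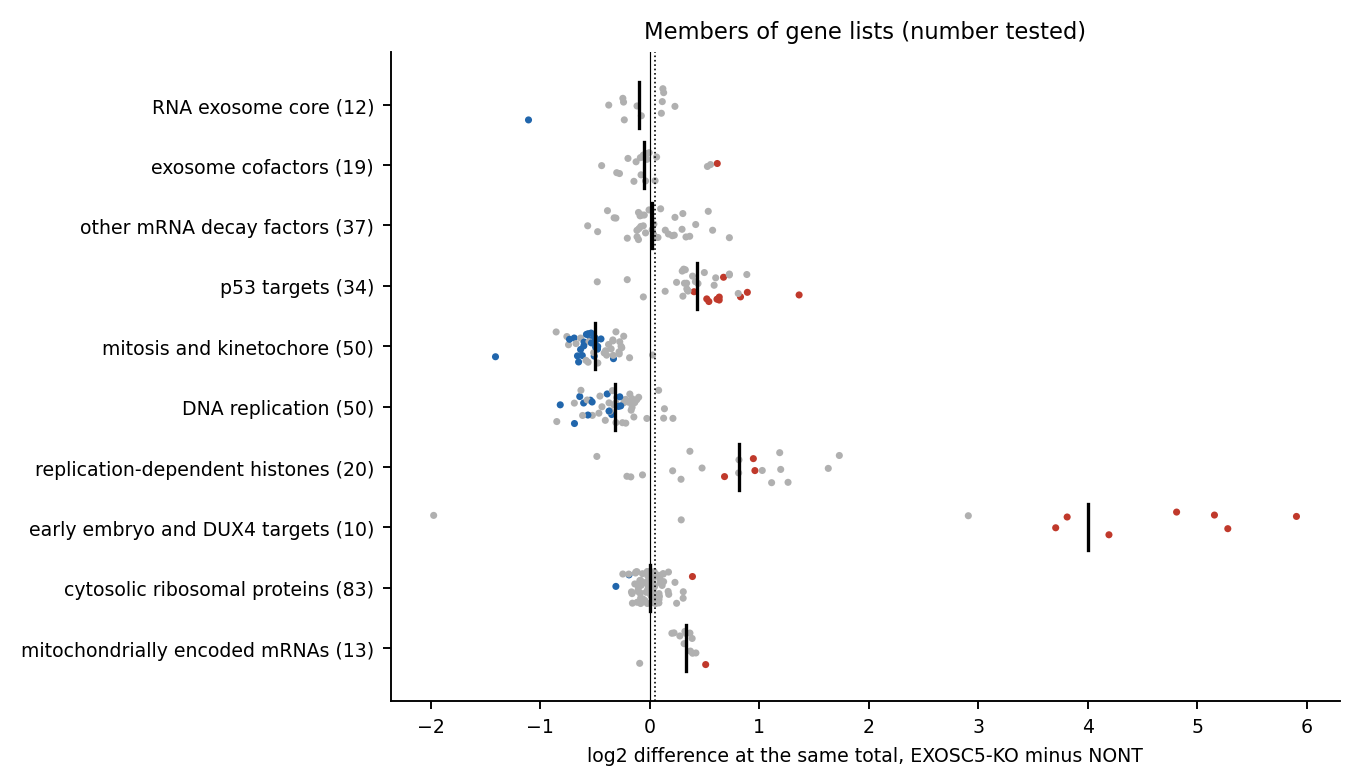
Log2 difference at the same total between EXOSC5-KO and NONT cells without drug (x axis) of each tested member of 10 gene lists (rows, number tested in brackets), with called genes in red (higher) or blue (lower), others in gray, black bars at the list medians and a dotted line at the median of all genes. The mitosis members sit left of 0 around −0.51, the p53 targets right of 0 around 0.43, and EXOSC5 at −1.11 is the single called gene of the exosome core.

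No difference in the remaining subunits of the exosome passed the test at the same total or on the deposited scale. Of all tested genes 2.78% were higher and 2.09% lower at the same total. Of 12 genes of the core and its nucleases, EXOSC5 alone was called, and the differences of the other 11 lay between −0.38 and 0.23. EXOSC7 had the lowest of these, at 523.3 and 465.9 against 503.0 and 787.3 (adjusted p = 0.0636), and by ratios and on the mitochondrial scale 2 members, EXOSC5 and EXOSC7, were lower. The nuclear nuclease EXOSC10 was at 1413 and 1320 against 996.9 and 1529 (0.12), and the processive nuclease DIS3 at 1171 and 1001 against 801.1 and 1184 (0.13). Of 19 cofactors, among them the helicase MTREX (−0.08), the NEXT scaffold ZCCHC8 (−0.03) and the SKI helicase SKIC2 (−0.44), only SRRT was higher. SRRT, or ARS2, which joins the cap-binding complex to the nuclear exosome, was at 3842 and 3490 in EXOSC5-KO, 1911 and 2878 in NONT and 2042 and 2343 in NUP93-KO (0.62 ± 0.11, adjusted p = 0.0105). Of 37 other decay factors 0 passed in limma in either direction, with 3 higher and 3 lower at an unadjusted p under 0.05 and with XRN1, the cytoplasmic 5′ nuclease, at 372.3 and 348.2 against 149.4 and 376.1.

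ZNF526 had the largest decrease. This zinc finger gene (ENSG00000167625, chromosome 19, 42220292 to 42228201, 3 exons) was listed at 0 and 1.22 in the EXOSC5-KO libraries, against 285.9 and 329.5 in NONT and 262.8 and 123.1 in NUP93-KO. The log2 difference was −7.40 ± 0.61 (adjusted p = 0.000201). It starts 823 kb from the EXOSC5 cut. Of 42 tested genes that start within 1 Mb of the cut, EXOSC5, ZNF526 and the receptor tyrosine kinase AXL were lower and 0 were higher. Among all tested genes 2.09% were lower and 2.78% higher at the same total. AXL was at 6042 and 5560 against 6840 and 9115 (−0.47). The median over the 42 was −0.02, with quartiles of −0.21 and 0.18. Neighbors of ZNF526 did not share its loss, with GSK3A at 1070 and 1057 against 1032 and 1344, and DEDD2 at 552.2 and 486.6 against 353.3 and 488.6. BCKDHA, which starts 0.6 kb from the cut on the other strand, was at 599.8 and 474.7 against 404.5 and 592.9.

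**Figure D4:**
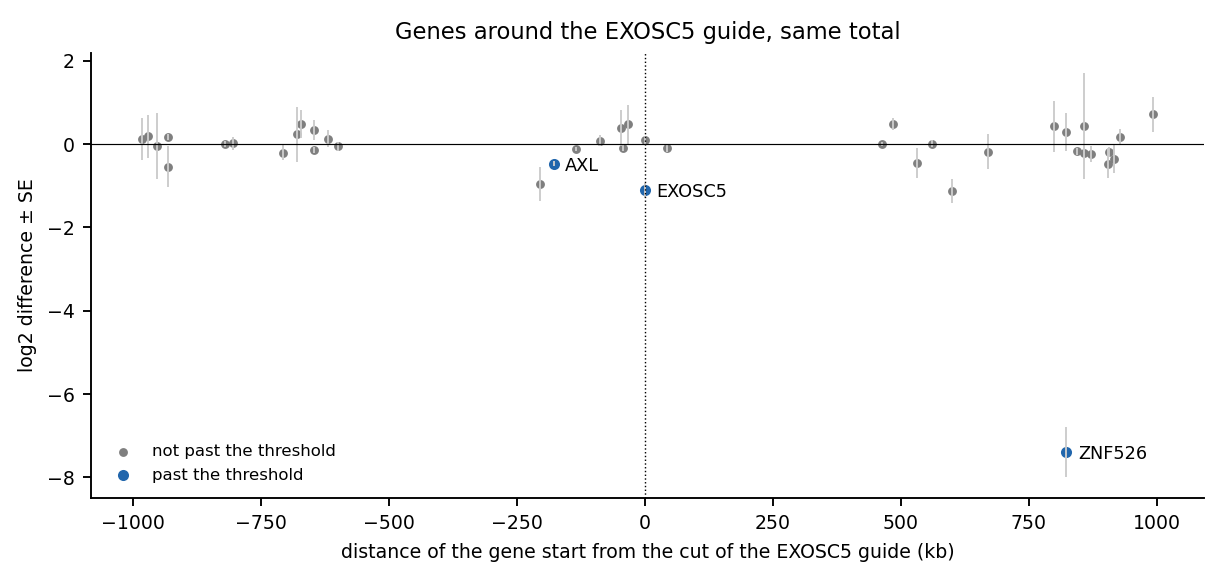
Log2 difference at the same total with its SE (y axis) of 42 tested genes against the distance of their start from the cut of the EXOSC5 guide (x axis, kb). EXOSC5, AXL and ZNF526 (blue) passed the threshold, and the other genes, gray, scatter around 0 on both sides of the cut.

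The other large decreases were smaller and less even. The 12 were ZNF526, SMARCB1, LRRN2, SAYSD1, DEPDC1B, TNNC1, DUSP9, EXOSC5, NES, TNS3, SAPCD2 and ITGB3, of which 2, ZNF526 and DEPDC1B, passed on the deposited scale. NES, the intermediate filament nestin, was at 267.9 and 228.0 against 427.4 and 629.0 (−1.09). TNS3, a focal adhesion protein, was at 517.6 and 473.0 against 814.2 and 1246 (−1.05), and NUP93-KO cells were at 498.8 and 495.4. SMARCB1, a subunit of the SWI/SNF remodeling complexes, was at 38.1 and 46.4 in EXOSC5-KO, 82.8 and 334.5 in NONT and 40.6 and 61.4 in NUP93-KO. Its difference rested on a NONT pair that was itself far apart (−1.98 ± 0.49, adjusted p = 0.0475).

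At the same total 2.09% of all tested genes were lower and 2.78% higher. Smooth muscle and cytoskeletal genes driven by SRF were mixed there, with 7 of 23 lower and 2 higher. In limma 0 passed on the deposited scale, with 2 lower and 2 higher at an unadjusted p under 0.05. By ratios 10 were lower and 2 higher, on the mitochondrial scale 8 and 0, and with any 1 of the 4 libraries left out 4 or 5 were lower and 0 higher. CNN1, or calponin, was at 921.1 and 758.7 in EXOSC5-KO, 1317 and 1764 in NONT and 422.1 and 506.0 in NUP93-KO. EXOSC5-KO cells were thus lower than NONT (−0.89, adjusted p = 0.00075) and higher than NUP93-KO (0.71, adjusted p = 0.0046). TPM1 (−0.50), TAGLN (−0.41), ACTB (−0.32), VCL, ACTG1 and MYL9 were the other lower members, and ACTA2 (0.72) and FHL2 (0.44) were higher. Of 31 extracellular matrix genes, 5 were higher and 2 lower at the same total, but 3 and 3 by ratios and 0 and 3 on the mitochondrial scale, so their balance turned with the scale. Deposited values gave 0 calls in limma, with 3 higher and 1 lower at an unadjusted p under 0.05. With a library left out 2 were higher, or 3 without NONT replicate 2, and 2 were lower without EXOSC5-KO replicate 1 and 1 otherwise. TIMP1, an inhibitor of matrix metalloproteinases, was at 16120 and 14650 against 8292 and 11960 (0.60). The collagen gene COL1A1 was at 39510 and 31180 against 39200 and 57590 (−0.46). COL6A3, LAMB1 and MMP2 were among the other higher members, and the crosslinking enzyme LOXL1 was lower (−0.83).

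Other stress programs were examined at the same total, where 2.78% of all tested genes were higher and 2.09% lower. Of 19 genes of the integrated stress response 0 were higher and 5 lower, namely ATF5 (−0.63), PSAT1 (−0.49), ASNS (−0.45), PHGDH (−0.45) and ATF4 (−0.29). The list as a whole was mixed, with 9 positive and 10 negative differences and a median of −0.035. Its highest difference, 3.56, was not called, and 2 members were higher and 6 lower at an unadjusted p under 0.05 in limma. ATF4, the transcription factor of this response, was at 6971 and 6467 against 6983 and 9265. From the deposited values 0 of the list passed in limma, with 2 higher and 3 lower at an unadjusted p under 0.05, and with any 1 library left out 3 were lower. Of 21 heat shock chaperones, CRYAB was higher (0.22), and HSPA1B was lower, being listed at 0 in both EXOSC5-KO libraries against 81.7 and 49.2. Its near copy HSPA1A was at 1294 and 1175 against 1268 and 2291 and was not called, and reads of the pair may have been divided between them. With any 1 library left out, 0 chaperones were called. Of 19 interferon-stimulated genes 0 were called by limma, with 3 higher at an unadjusted p under 0.05, among them IFIT3 at 128.7 and 113.5 against 47.6 and 0. Of 25 immediate early genes 0 were called by limma, and 6 were higher at an unadjusted p under 0.05. Of the 4 short-lived transcripts MYC, JUN, MCL1 and WEE1, 0 were called and 0 had an unadjusted p under 0.05, with MYC at 1236 and 1208 against 869.8 and 1431. CXCL8, an inflammatory chemokine named after its values were seen, was at 254.8 and 213.9 against 61.2 and 60.4 and at 152.2 and 141.9 in NUP93-KO (1.89 ± 0.25, adjusted p = 0.00264).

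The lists that follow were examined at the same total, where 2.78% of all tested genes were higher and 2.09% lower. Of 32 apoptotic regulators, BAX was higher and BIRC5, BCL2L12 and CYCS were lower. BCL2L12, a member of the BCL2 family, was at 468.1 and 421.4 in EXOSC5-KO, 591.6 and 771.1 in NONT and 593.1 and 647.3 in NUP93-KO (−0.63 ± 0.11, adjusted p = 0.0116). CYCS, or cytochrome c, was at 4682 and 4418 against 4569 and 7236 (−0.36). Of 83 cytosolic ribosomal protein genes, 1 was higher and 2 were lower, with a median of 0.00. The higher gene, RPS27L, is also known as a p53-inducible copy of RPS27, and it was at 3341 and 3273 against 2002 and 3068 (0.39). RPL10A (−0.31) and RPS16 (−0.19) were lower. Of 60 ribosome biogenesis genes 0 passed in limma, with 3 higher and 3 lower at an unadjusted p under 0.05. Of 13 mitochondrially encoded mRNAs, MT-ND4 passed, at 11230 and 10010 against 5492 and 9727 (0.51), and 12 were positive with a median of 0.33. Of 440 zinc finger genes with a number in their symbol, 3 were higher, ZNF778 (1.93), ZNF789 (1.55) and ZNF268 (0.96), and ZNF526 was lower, with a median of 0.19. Of 31 nuclear pore genes NUP62, AAAS and NDC1 were lower. NUP93 was at 1805 and 1618 against 1753 and 2489 (−0.32, adjusted p = 0.0776). In limma on the deposited scale 0 of the apoptotic and nuclear pore genes passed, with 5 apoptotic regulators higher and 2 lower and 3 nuclear pore genes lower at an unadjusted p under 0.05.

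Among the markers of the cell type, the mesenchymal genes VIM, FN1 and SPARC had high values, and so did the epithelial keratin KRT18. VIM was at 49830 and 46620 in EXOSC5-KO and 45690 and 66970 in NONT, FN1 at 28300 and 26290 against 16970 and 25730, and SPARC at 15370 and 13740 against 13460 and 19760. Of 9 mesenchymal and osteosarcoma markers CD44 was higher (0.44), and COL1A1 and VIM (−0.23) were lower at the same total. Among all tested genes 2.78% were higher and 2.09% lower there. Of 6 tested epithelial markers 0 were called by limma and 1 was higher at an unadjusted p under 0.05, with CDH1 at 42.6 and 37.2 against 32.2 and 69.7, while KRT18 was at 12710 and 12090 against 8846 and 13640. Of 8 blood and endothelial markers VWF alone passed the filter on low values, HBB was listed at 0 in all 6 untreated libraries, and PTPRC did not exceed 4.57 in any of them.

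Against NUP93-KO cells, which went through the same transfection with a cutting guide, 209 genes were higher (1.51%) and 213 lower (1.54%) in EXOSC5-KO cells at the same total. This comparison shares the EXOSC5-KO libraries with the one against NONT. Of the 12 largest increases 9 were also above NUP93-KO, and FAM83H, ERV3-1 and ACD were not called. Of the 12 largest decreases 5 were also below NUP93-KO. PCF11 was 3.34 above NUP93-KO on the log2 scale, PCSK5 2.79 and H3Y1 4.73. Of the p53 targets 3 were above NUP93-KO, and of the mitosis genes 15 were below it.

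EXOSC5-KO and NONT cells were also compared in the libraries treated with triptolide. All 12 libraries shared the estimate of the spread of each gene, so calls with and without drug were not independent. With drug, 1230 genes (8.91%) were higher and 586 (4.24%) lower in EXOSC5-KO than in NONT cells at the same total. Of the 384 genes higher without drug, 255 (66.4%) were also higher with triptolide and 1, FAM83H, was lower. Of the 289 lower genes 204 (70.6%) were also lower and 0 were higher. The median difference with drug was 0.57 for the former, −0.42 for the latter and 0.09 for all genes. PCF11 was at 925.4 and 810.6 in EXOSC5-KO and 35.8 and 38.8 in NONT with triptolide at the same total (log2 difference 4.50). PCSK5 was at 2994 and 2747 against 285.9 and 316.1 (3.25), and EXOSC5 at 97.6 and 131.4 against 465.2 and 441.0 (−1.99). Of the p53 targets 16 were higher and of the mitosis genes 32 were lower with drug, and of the 10 early embryo genes 3 were higher and 0 lower. H3Y1 (5.28) and TAF11L12 (5.55) were among the 3, whereas TAF11L13 and TAF11L14 were at no more than 3.63 in any of the 4 treated libraries at the same total. The division of reads between TAF11L copies makes this contrast uncertain.

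**Figure D5:**
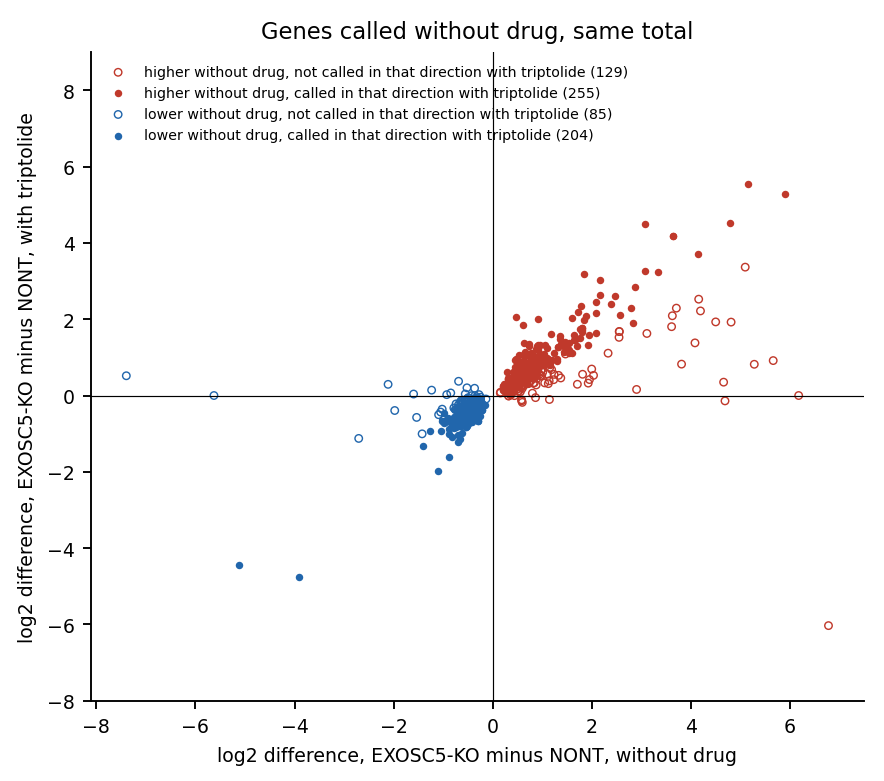
Log2 difference at the same total between EXOSC5-KO and NONT cells with triptolide (y axis) against that without drug (x axis) for the 384 higher (red) and 289 lower (blue) genes called without drug. Filled points were called in the same direction with drug, 255 and 204, and the point at the lower right is FAM83H.

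The size of the EXOSC5-KO effect differed between the drug conditions in 9 genes (0.0652% of those tested) at the same total. ZNF526 was the one of these among the genes named by the rule. With triptolide it was at 10.6 and 17.1 in EXOSC5-KO and 6.24 and 13.2 in NONT at the same total, and the libraries overlapped. The effect of the knockout was thus −7.40 without drug and 0.52 with drug, a difference of 7.91 ± 0.86 (limma, adjusted p = 0.0105).

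Gene structure was compared between the called genes and all 12995 tested genes with a symbol. Genes with a single exon made up 15 of 368 higher genes (4.08%), 3 of 284 lower genes (1.06%) and 286 of all (2.20%). H3Y1, TAF11L12, TAF11L13 and TAF11L14 were among the higher ones. Most tested members of the early embryo list passed the filter through the EXOSC5-KO libraries alone, so these shares are no test of enrichment. The median number of exons was 9 in each set, and the median transcript length was 3026 bases in the higher, 2668 in the lower and 3448 in all genes. The median GC content was 48.1%, 50.4% and 48.1%. The median level was 797 in the higher, 1700 in the lower and 379 in all genes, and the sets thus differed in abundance as well. Over the nuclear chromosomes, the median difference lay between −0.02 and 0.09.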

How the data were processed

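Groups and replicate numbers came from the sample labels. The authors selected poly(A) RNA, made stranded libraries and quantified the reads with kallisto 0.46.1 against Ensembl GRCh38 transcripts. The authors scaled per-gene sums from tximport by DESeq2 size factors estimated on the 92 ERCC transcripts alone, and only protein-coding genes were kept (tools as named in the study's methods and processing notes). The deposited values are thus a spike-in-normalized signal per gene, not a read count, and a wrong cell number or spike-in volume moves a whole library. Low values were whole multiples of 1 read in only 37.0% to 40.5% of cases (within 0.05), so no count model was used, and the approximate depth comes from that spacing. Of the table's 22471 rows, 92 were ERCC transcripts, which summed to 40020 to 42810 per library.

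Values were analyzed as log2(value + 1), which understates the changes of low genes. Folds are 2 to the power of that difference. Means of the 6 groups were fitted to all 12 libraries with limma 3.58.1 (R 4.3.3, eBayes with trend, 6 residual degrees of freedom), with two-sided tests and Benjamini-Hochberg adjustment across the 13811 genes, on the deposited scale and with each library scaled to the same total of gene values. Among the tested rows, 482 were identical to another row. GENCODE release 44 (GRCh38) gave symbols and positions for 12995 of them, and RefSeq (GRCh38.p14) the promoters. The script was tested on simulated data. Summaries used pandas 2.3.3, NumPy 2.4.6 and SciPy 1.17.1, and figures matplotlib 3.10.9, all under Python 3.11.15.

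The genes named were EXOSC5, up to 12 per direction with the largest difference at the same total among those called there, a mean of 100 or more in a compared group, a symbol and no overlap of libraries on either scale, and up to 4 members of each list. Others are marked, and 1 gene that the rule names is not reported here. The comparison, the lists and the rule were chosen with earlier results of these data known. Alternatives were other scalings, pseudocount 10, minimum mean 50, no filter, no trend, fits over 6 or 4 libraries, a replicate block, distinct matched rows and leaving out each library.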

Additional observations from a re-analysis of the deposited data

Results flagged for a closer look

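ZNF526 was marked because the EXOSC5-KO effect differed between the drug conditions in a test of the difference itself. The effect with triptolide minus the effect without drug was 7.913 on the log2 scale at the same total (SE 0.857, limma adjusted p = 0.0105). On the deposited scale it was at 285.9 and 329.5 in NONT without drug and at 3.56 and 6.20 with drug, and in EXOSC5-KO at 0 and 1.22 without and at 8.20 and 13.2 with drug. Its level with drug was thus low in both genotypes.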

How the results depend on the processing

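The groups held 2 libraries each, and the NONT libraries were of unequal scale. EXOSC5 was called on the deposited scale only when the model was fitted to the 6 untreated libraries (−1.08, adjusted p = 0.0458). At the same total it was not called without EXOSC5-KO replicate 2 (−0.89, adjusted p = 0.0683) or without NONT replicate 2 (−1.04, adjusted p = 0.0724), and with 1 library left out it ranged from −1.33 to −0.89.

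On the deposited scale (67 higher, 5 lower) lower genes numbered 11 with pseudocount 10 and 2 with a minimum mean of 50. The fit over 6 untreated libraries gave 173 higher and 51 lower, that over 4 libraries 127 and 28, the median of ratios 284 and 503, and the mitochondrial scale 74 and 719. With 1 library left out the counts ran from 14 to 197 higher and from 1 to 53 lower. At the same total (384 and 289) the fit without a trend gave 218 higher and 112 lower, and with 1 library left out, where the lone library is assumed to vary like the other groups, the counts ran from 121 to 157 and from 102 to 122. Fewer libraries also leave fewer degrees of freedom.

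The labels do not say whether libraries with the same replicate number were paired. The r of replicate differences between EXOSC5-KO and NONT across genes was −0.013 at the same total. That scaling removes any shift of a whole library, so pairing remains unknown. A replicate block gave 64 higher and 6 lower genes on the deposited scale and 348 and 258 at the same total.

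Of 83 named genes that passed, none reversed, 31 lost the call without a trend, and 36 to 41 lost it when 1 library was left out. Of the 24 with the largest differences, 12 kept the call in all 9 settings. The other 12 were ACD, DUSP9, ERV3-1, EXOSC5, FAM83H, ITGB3, LRRN2, NES, POTEI, SAYSD1, SMARCB1 and TNS3. The causes were not tested.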
